A study of Bos indicus and Bos indicus x Bos taurus and Bos taurus with 6 samples.

Results

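The 9 genes described here encode platelet granule and cytoskeleton proteins and were chosen by gene symbol from the 21698 genes of the deposited count table. They are the chemokine genes PF4 and PPBP, the adhesion and matrix genes SELP, THBS1 and SPARC, the cytoskeleton genes TUBB1 and MYL9, and the membrane and signalling genes CAVIN2 and GNG11. All 9 were found in the table, and all 9 passed the filter on low counts. They were chosen by name and not by their values in these libraries, but the choice was made with earlier results of these data known.

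RNA from whole blood, drawn at the jugular vein, was sequenced in cows of 3 breeds kept on 1 university farm in Malaysia. The breeds were Kedah-Kelantan (Bos indicus, native to the tropics, labelled heat-tolerant), Brangus (a composite breed labelled intermediate) and Holstein Friesian (Bos taurus, labelled heat-vulnerable). Every animal was a clinically healthy adult female, neither pregnant nor lactating, and age (mean 4.5 ± 1.2 years) and body weight (450 ± 15 kg) are given alike for each breed. Every library is labelled as heat stress, at a Temperature-Humidity Index of 44.68 whose formula and scale are not stated, so breeds are compared here and heat loads are not. The labels give 2 biological replicates per breed (n = 2 throughout) while the design text gives 4 animals per breed, and whether a library stands for 1 animal or for several is not given in the sources used here. P-values therefore measure only the spread between these libraries.

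Platelets are small cells without a nucleus that megakaryocytes of the bone marrow shed into the blood, and their RNA is handed down from the megakaryocyte. Their alpha granules store chemokines and adhesive proteins that are released on activation, and some granule membrane proteins then appear on the cell surface. A ring of microtubules keeps the resting platelet disc-shaped, and myosin contraction drives its change of shape. In RNA from whole blood, fewer cells of a type and less RNA per cell cannot be told apart.

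PF4, PPBP, TUBB1, MYL9 and GNG11, 5 of the 9 genes, had higher levels in both Brangus libraries than in any of the other 4 libraries, as 14.0% of all genes tested did. Their fitted levels in Brangus were 2.56-fold to 7.08-fold those in Holstein Friesian, and their fitted levels in Kedah-Kelantan were 3.17-fold to 5.77-fold lower than those in Brangus. No such difference passed edgeR's test over all genes, which called 0.00743% of them for Brangus over Holstein Friesian and 0% for Kedah-Kelantan over Brangus. With either Holstein Friesian library left out, all 5 genes passed in both comparisons, beside 6.06% to 31.3% of all genes. Such fits leave 1 Holstein Friesian library, which is assumed to vary like those of the other breeds, whose replicates were more alike. SELP and THBS1 followed other orders, and SPARC and CAVIN2 lay near the limit of detection. The 9 genes together took 0.0462% and 0.054% of all counts in Kedah-Kelantan replicates 1 and 2, 0.175% and 0.194% in the Brangus libraries, and 0.0528% and 0.0639% in the Holstein Friesian libraries.

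Total counts ranged from 25275377 to 28668857 per library. Over 8867 genes with a mean of at least 10 CPM (read counts divided by the TMM-scaled library size), replicates of Kedah-Kelantan differed by a median of 0.13 on the log2 scale in either direction, those of Brangus by 0.18 and those of Holstein Friesian by 0.48. The Holstein Friesian libraries stood apart from each other: the summed level of 20 monocyte markers was 2031 CPM in Holstein Friesian replicate 1 and 11487 CPM in replicate 2, and that of 22 neutrophil markers was 940 and 10262 CPM. Markers of B and plasma cells ran the other way, at 4700 and 502 CPM. The haemoglobin genes took 0.0102% to 0.0588% of counts. The submitters' processing notes name no step that would lower haemoglobin reads, and whether one was used was not tested.

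PF4 and PPBP are neighbours on chromosome 6, both on the plus strand. PPBP lies at 88915411 to 88917013 and PF4 at 88924248 to 88925219, with 7234 bases between them, in the authors' coordinates. PF4 encodes platelet factor 4, an alpha granule chemokine that binds heparin. PPBP encodes pro-platelet basic protein, from which a chemokine that attracts neutrophils is cut.

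PF4 had 104 and 138 CPM in Kedah-Kelantan replicates 1 and 2, 709 and 687 CPM in Brangus, and 258 and 276 CPM in Holstein Friesian. The breeds did not overlap, with Brangus highest, Holstein Friesian between and Kedah-Kelantan lowest. Mean levels were 121 ± 23.6 CPM in Kedah-Kelantan, 698 ± 14.9 CPM in Brangus and 267 ± 12.9 CPM in Holstein Friesian (SD, n = 2 each). The log2 fold change was -1.14 (SE 0.20) for Kedah-Kelantan over Holstein Friesian, 1.39 (SE 0.20) for Brangus over Holstein Friesian and -2.53 (SE 0.21) for Kedah-Kelantan over Brangus. None passed edgeR's quasi-likelihood test with Benjamini-Hochberg adjustment over the 13455 genes tested, at adjusted p = 0.857, 0.452 and 0.337 in the same order. For Kedah-Kelantan over Brangus, PF4 ranked 1 of all genes by unadjusted p (4.16e-05).

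PPBP had 32.6 and 34.5 CPM in Kedah-Kelantan, 101 and 158 CPM in Brangus, and 17.5 and 19.1 CPM in Holstein Friesian. The breeds again did not overlap and Brangus was again highest, but here Holstein Friesian was the lowest, in contrast to PF4. Means were 33.6 ± 1.33 CPM in Kedah-Kelantan, 130 ± 40.8 CPM in Brangus and 18.3 ± 1.13 CPM in Holstein Friesian. Fitted log2 fold changes were 0.88 (SE 0.25), 2.82 (SE 0.27) and -1.95 (SE 0.26) for Kedah-Kelantan over Holstein Friesian, Brangus over Holstein Friesian and Kedah-Kelantan over Brangus, and edgeR's Benjamini-Hochberg adjusted p-values were 0.995, 0.302 and 0.337. For Brangus over Holstein Friesian, PPBP ranked 3 of all genes by unadjusted p (8.29e-05).

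The ratio of PF4 to PPBP counts within a library was 3.20 and 3.99 in Kedah-Kelantan cows, 7.04 and 4.34 in Brangus cows and 14.7 and 14.5 in Holstein Friesian cows. Both Holstein Friesian libraries lay well above the other 4, and lay close to each other although their leukocyte markers differed widely. This ratio does not depend on the scaling of the libraries. Between any 2 of the breeds, with 2 libraries against 2, the smallest two-sided p that an exact permutation test allows is 0.333. The ratio was also chosen after its values were seen, so it is given as a description.

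**Figure D1:**
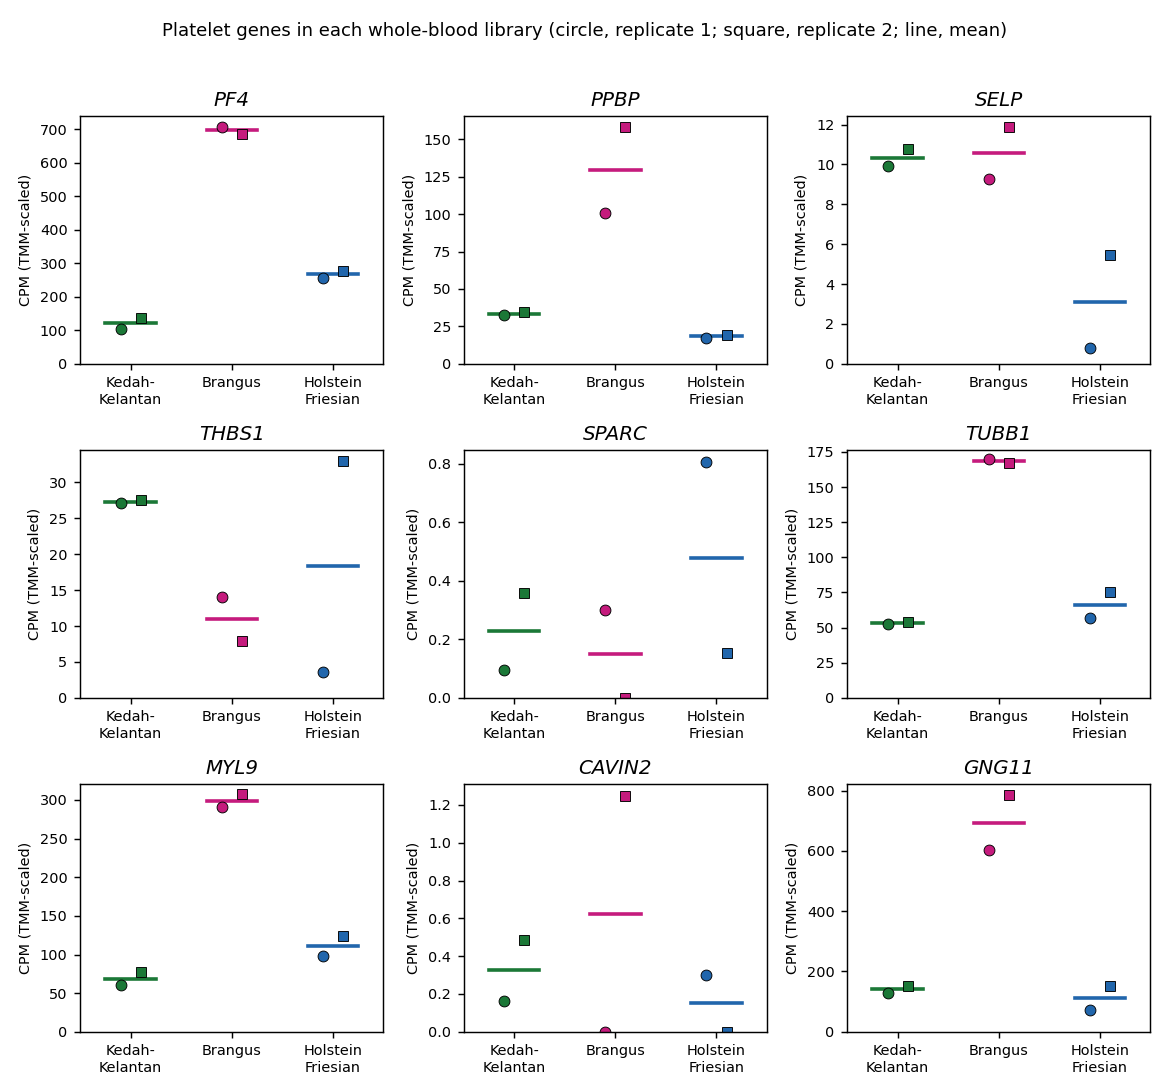
Level of each of the 9 genes in CPM (linear axis from 0, a scale of its own for each gene) in Kedah-Kelantan, Brangus and Holstein Friesian; a circle is replicate 1, a square replicate 2 and the line their mean. PF4, PPBP, TUBB1, MYL9 and GNG11 are highest in both Brangus libraries, SELP and THBS1 are lowest in Holstein Friesian replicate 1, and SPARC and CAVIN2 stay under 1.3 CPM with a 0 in at least 1 library.

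SELP (chromosome 16, 37241576 to 37284908, minus strand) encodes P-selectin, an adhesion receptor of the alpha granule membrane that reaches the surface of activated platelets and that endothelial cells also make. It had 9.91 and 10.8 CPM in Kedah-Kelantan, 9.25 and 11.9 CPM in Brangus, and 0.805 and 5.44 CPM in Holstein Friesian. Kedah-Kelantan and Brangus overlapped, and both Holstein Friesian libraries lay below all others, replicate 1 by far the lowest. The underlying counts were 308 and 331 in Kedah-Kelantan cows, 216 and 276 in Brangus cows and 24 and 143 in Holstein Friesian cows. Log2 fold changes were 1.73 (SE 0.85) for Kedah-Kelantan over Holstein Friesian, 1.76 (SE 0.85) for Brangus over Holstein Friesian and -0.03 (SE 0.82) for Kedah-Kelantan over Brangus. None passed edgeR's test (Benjamini-Hochberg adjusted p = 0.995, 0.659 and 0.991). Without Holstein Friesian replicate 2, SELP passed for Kedah-Kelantan over Holstein Friesian (log2 fold change 3.63, adjusted p = 0.00146) and for Brangus over Holstein Friesian (3.67, adjusted p = 0.00208), each time against replicate 1 alone. Without Holstein Friesian replicate 1 the same values were 0.93 and 0.95, and neither passed.

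THBS1 (chromosome 10, 35209555 to 35225356, plus strand) encodes thrombospondin 1, an adhesive glycoprotein of alpha granules that monocytes also make. It had 27.1 and 27.6 CPM in Kedah-Kelantan, 14.0 and 7.90 CPM in Brangus, and 3.59 and 33.0 CPM in Holstein Friesian. Kedah-Kelantan lay above Brangus without overlap, and the Holstein Friesian libraries held both the lowest and the highest value. Log2 fold changes were 0.58 (SE 0.96), -0.74 (SE 0.97) and 1.32 (SE 0.98) for Kedah-Kelantan over Holstein Friesian, Brangus over Holstein Friesian and Kedah-Kelantan over Brangus, and none passed edgeR's test (Benjamini-Hochberg adjusted p = 0.995, 0.822 and 0.639).

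The direction of THBS1 over Holstein Friesian rested on which Holstein Friesian library was used. For Brangus over Holstein Friesian, its log2 fold change was -1.60 with Holstein Friesian replicate 1 left out (adjusted p = 0.00542) and 1.57 with replicate 2 left out (adjusted p = 0.0474), both past edgeR's threshold. For Kedah-Kelantan over Holstein Friesian, it was -0.27 with replicate 1 left out (adjusted p = 0.616) and 2.89 with replicate 2 left out (adjusted p = 0.00308). SELP and THBS1 were low in Holstein Friesian replicate 1 together with monocyte and neutrophil markers, but not with B cell markers. The monocyte genes LYZ and CTSS, for lysozyme and cathepsin S, were at 1061 and 1241 CPM and at 467 and 510 CPM in Kedah-Kelantan, at 874 and 829 and at 516 and 513 CPM in Brangus, and at 377 and 5876 and at 375 and 1090 CPM in Holstein Friesian. CYBB, another of the highest monocyte markers, was not lowest in Holstein Friesian replicate 1. It was at 771 and 668 CPM in Kedah-Kelantan, 648 and 446 CPM in Brangus, and 552 and 793 CPM in Holstein Friesian. The summed level of all 20 monocyte markers, none of which was at 0 in all libraries, was 3543 and 3768 CPM in Kedah-Kelantan, 3065 and 3042 CPM in Brangus, and 2031 and 11487 CPM in Holstein Friesian, and the part of monocytes in the THBS1 and SELP values was not tested. The annotated THBS1 overlaps FSIP1 on the opposite strand by 226 bases, and FSIP1 had 0 counts in all 6 libraries.

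SPARC (chromosome 7, 62874459 to 62897234, minus strand) encodes a collagen-binding matrix protein that human platelets carry in alpha granules. It had 3 and 11 counts in Kedah-Kelantan cows, 7 and 0 in Brangus cows and 24 and 4 in Holstein Friesian cows. The exact 95% Poisson interval was 15.4 to 35.7 counts for the highest library and 0 to 3.69 counts for the library at 0, which allows up to 0.129 CPM when 0 is read as up to 3 counts. These intervals cover counting error only. Replicates differed as much as breeds did, and edgeR's adjusted p was 0.995 for Kedah-Kelantan over Holstein Friesian, 0.789 for Brangus over Holstein Friesian and 0.929 for Kedah-Kelantan over Brangus. A breed difference in SPARC was not detectable at this depth.

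TUBB1 (chromosome 13, 57365448 to 57370548, minus strand) encodes the beta tubulin of megakaryocytes and platelets, which builds the platelet's microtubule ring. It had 52.2 and 54.1 CPM in Kedah-Kelantan, 170 and 167 CPM in Brangus, and 56.6 and 75.3 CPM in Holstein Friesian. Brangus stood clear of both other breeds, which did not overlap but lay near each other. Means were 53.2 ± 1.4 CPM in Kedah-Kelantan, 169 ± 2.12 CPM in Brangus and 66.0 ± 13.2 CPM in Holstein Friesian. Log2 fold changes were -0.31 (SE 0.19) for Kedah-Kelantan over Holstein Friesian, 1.35 (SE 0.19) for Brangus over Holstein Friesian and -1.67 (SE 0.20) for Kedah-Kelantan over Brangus. EdgeR's Benjamini-Hochberg adjusted p-values were 0.995, 0.452 and 0.337.

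MYL9 (chromosome 13, 65647900 to 65655870, plus strand) encodes a regulatory light chain of the contractile myosin of platelets and smooth muscle. It had 59.9 and 77.0 CPM in Kedah-Kelantan, 291 and 308 CPM in Brangus, and 97.9 and 123 CPM in Holstein Friesian. The order was that of PF4, Brangus first and Kedah-Kelantan last, with no overlap. Means were 68.4 ± 12 CPM in Kedah-Kelantan, 299 ± 11.9 CPM in Brangus and 111 ± 18.1 CPM in Holstein Friesian. Log2 fold changes were -0.69 (SE 0.21), 1.43 (SE 0.22) and -2.13 (SE 0.22) for Kedah-Kelantan over Holstein Friesian, Brangus over Holstein Friesian and Kedah-Kelantan over Brangus, with edgeR's Benjamini-Hochberg adjusted p at 0.995, 0.452 and 0.337.

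CAVIN2 (chromosome 2, 80481716 to 80494773, minus strand) encodes a caveola coat protein that binds phosphatidylserine, and endothelial cells also make it. It had 5 and 15 counts in Kedah-Kelantan cows, 0 and 29 in Brangus cows and 9 and 0 in Holstein Friesian cows. The widest gap was between the Brangus libraries, whose exact 95% Poisson intervals were 0 to 3.69 and 19.4 to 41.6 counts. No comparison passed edgeR's test (Benjamini-Hochberg adjusted p = 0.995, 0.797 and 0.898 for Kedah-Kelantan over Holstein Friesian, Brangus over Holstein Friesian and Kedah-Kelantan over Brangus).

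GNG11 (chromosome 4, 11242533 to 11247552, plus strand) encodes a gamma subunit of the G proteins that pass signals on from surface receptors. It had 128 and 153 CPM in Kedah-Kelantan, 602 and 785 CPM in Brangus, and 72.5 and 151 CPM in Holstein Friesian. Brangus lay above all other libraries, and Kedah-Kelantan and Holstein Friesian overlapped. Means were 140 ± 17.1 CPM in Kedah-Kelantan, 693 ± 129 CPM in Brangus and 112 ± 55.2 CPM in Holstein Friesian. Log2 fold changes were 0.33 (SE 0.38) for Kedah-Kelantan over Holstein Friesian, 2.64 (SE 0.40) for Brangus over Holstein Friesian and -2.30 (SE 0.40) for Kedah-Kelantan over Brangus, and edgeR's Benjamini-Hochberg adjusted p-values were 0.995, 0.452 and 0.351. Without Holstein Friesian replicate 1 the first of these was -0.10, and without Holstein Friesian replicate 2 it was 0.91 (adjusted p = 0.0217).

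Per unit of gene length (FPKM, the authors' values), PF4 was highest and GNG11 next in every breed. Mean PF4 was 236 ± 42.7 FPKM in Kedah-Kelantan, 1135 ± 33.0 FPKM in Brangus and 465 ± 12 FPKM in Holstein Friesian, and mean GNG11 was 208 ± 22.3, 855 ± 153 and 145 ± 62.2 FPKM in the same order. In Kedah-Kelantan those levels differed by less than the spread between libraries. MYL9 followed at 63.3 ± 10.3 FPKM in Kedah-Kelantan, 231 ± 7.43 FPKM in Brangus and 91.3 ± 8.19 FPKM in Holstein Friesian. PPBP, at 32.6 ± 0.834, 105 ± 32.2 and 15.9 ± 0.198 FPKM, came before TUBB1, at 13.7 ± 0.17, 36.2 ± 0.735 and 15.1 ± 1.92 FPKM. In Holstein Friesian, PPBP and TUBB1 differed by less than the spread between libraries. SELP and THBS1 lay at 1.11 to 5.20 FPKM and exchanged places between breeds, and SPARC and CAVIN2 lay at 0.05 to 0.205 FPKM.

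Within each library, the genes kept different proportions. GNG11 stood at 0.933 and 0.840 of PF4 in FPKM in Kedah-Kelantan cows, 0.644 and 0.866 in Brangus cows and 0.214 and 0.414 in Holstein Friesian cows. Both Holstein Friesian libraries were below the other 4. SELP had 0.190 and 0.199 counts per TUBB1 count in Kedah-Kelantan cows, 0.0543 and 0.0709 in Brangus cows and 0.0142 and 0.0722 in Holstein Friesian cows, so Kedah-Kelantan carried more SELP beside TUBB1 than the other breeds did. THBS1 had 0.519 and 0.509 counts per TUBB1 count in Kedah-Kelantan cows, 0.0823 and 0.0473 in Brangus cows and 0.0634 and 0.438 in Holstein Friesian cows. The 4 ratios were chosen after the values were seen and were not tested.

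**Figure D2:**
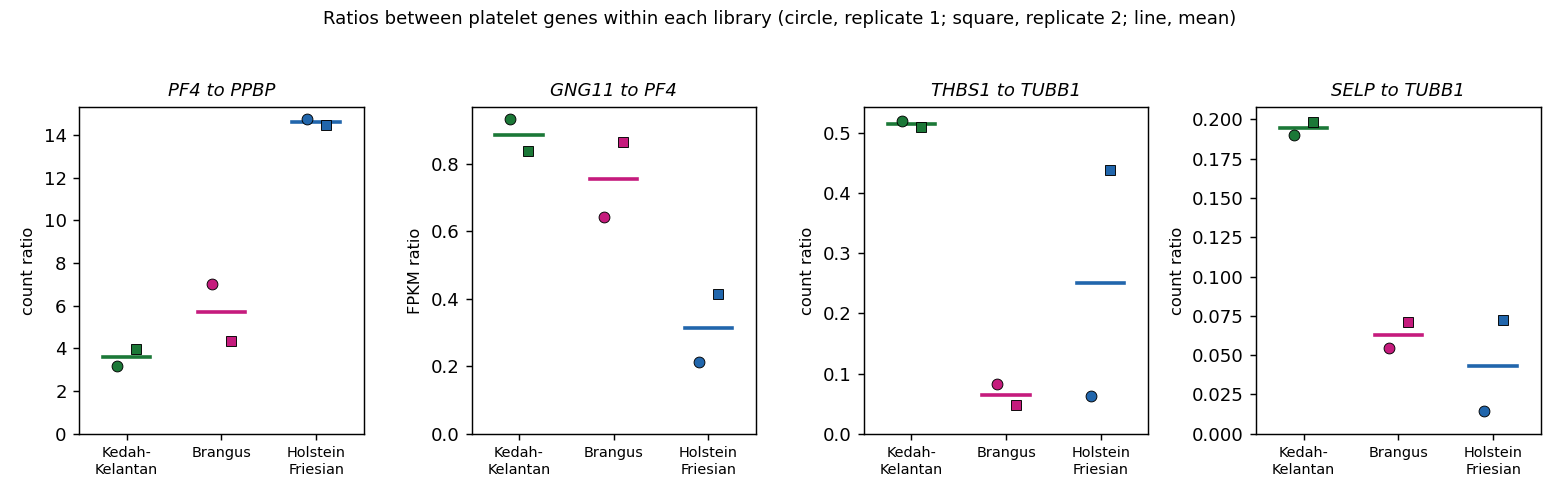
Ratios of 2 platelet genes within each library (linear axis from 0; counts for PF4 to PPBP, THBS1 to TUBB1 and SELP to TUBB1, FPKM for GNG11 to PF4); a circle is replicate 1, a square replicate 2 and the line their mean. The PF4 to PPBP ratio is 14.5 and 14.7 in Holstein Friesian and at most 7.04 elsewhere, and Kedah-Kelantan has the highest mean ratio in the other 3 panels, where single libraries of another breed come near it in GNG11 to PF4 and in THBS1 to TUBB1.

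For Kedah-Kelantan over Holstein Friesian, 5 of the 9 genes had a higher fitted level and 4 a lower one, with a median log2 fold change of 0.33 (all genes tested, -0.03). PPBP and SELP were higher, and PF4, TUBB1 and MYL9 lower, without overlap between libraries. Those 2 and 3 of 9 stand beside 18.1% and 12.6% of all genes. Over 2-fold higher were SELP and CAVIN2, beside 5.25% of all genes, and over 2-fold lower were PF4 and SPARC, beside 5.76%. None of the 9 was called at an adjusted p under 0.05 by edgeR, as against 0.00743% of all genes (1 gene), and 3 of 9 had an unadjusted p under 0.05 (4.04% of all genes). DESeq2 called PF4 alone of the 9 (log2 fold change -1.17, adjusted p = 0.000149), beside 1.01% of all genes. Without Holstein Friesian replicate 1, edgeR called PF4, TUBB1 and MYL9, all lower in Kedah-Kelantan (17.5% of all genes called), and without Holstein Friesian replicate 2 it called PF4, THBS1, SELP and GNG11 (11.9%), so that PF4 was called with either library left out.

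For Brangus over Holstein Friesian, 7 of the 9 genes had a higher fitted level, with a median log2 fold change of 1.43 (all genes tested, -0.03). Higher without overlap were 6 of 9, namely PF4, PPBP, SELP, TUBB1, MYL9 and GNG11, and none was lower without overlap, beside 18.4% and 15.9% of all genes. More than 2-fold higher were 7 of 9, CAVIN2 near its limit of detection among them, beside 5.89% of all genes, and SPARC, also near that limit, was over 2-fold lower, beside 10.5%. None of the 9 was called by edgeR, as against 0.00743% of all genes (1 gene), and 5 of 9 had an unadjusted p under 0.05 (7.62% of all genes). DESeq2 called PF4, PPBP, TUBB1, MYL9 and GNG11 (adjusted p between 1.89e-14 and 3.58e-05), beside 2.33% of all genes. Without Holstein Friesian replicate 1, edgeR called those 5 and THBS1 (31.3% of all genes called), and without replicate 2 it called those 5 with THBS1 and SELP (6.06%).

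For Kedah-Kelantan over Brangus, 7 of the 9 genes had a lower fitted level, with a median log2 fold change of -1.67 (all genes tested, 0.02). PF4, PPBP, TUBB1, MYL9 and GNG11 were lower without overlap and THBS1 was higher without overlap, beside 30.7% and 33.5% of all genes. More than 2-fold lower were 5 of 9, beside 6.74% of all genes, and THBS1 was more than 2-fold higher, beside 9.58%. None of the 9 and none of all genes (0%) was called by edgeR, although 5 of 9, beside 11.6% of all genes (1564 genes), had an unadjusted p under 0.05. DESeq2 called the same 5 (adjusted p between 8.52e-24 and 4.7e-05), beside 4.99% of all genes (672 genes).

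The fit shares 1 estimate of spread over all 6 libraries, the dissimilar Holstein Friesian pair included. A fit of only the Kedah-Kelantan and Brangus libraries called 6 of the 9, namely PF4, PPBP, TUBB1, MYL9 and GNG11 lower and THBS1 higher in Kedah-Kelantan, beside 19.3% of all genes (2538 genes). Its edgeR adjusted p-values were 0.000218 for PF4, 0.00143 for PPBP, 0.000281 for TUBB1, 0.000288 for MYL9, 0.000288 for GNG11 and 0.0156 for THBS1. The same 6 were called with either Holstein Friesian library left out of the joint fit, beside 17.4% of all genes without replicate 1 and 17.5% without replicate 2. Across any breed difference, edgeR called none of the 9 and none of all genes (0%), with 5 of 9 beside 8.23% of all genes (1107 genes) at an unadjusted p under 0.05, and DESeq2 called 5 of 9 beside 4.65% (625 genes). Without Holstein Friesian replicate 1 that edgeR test called 6 of 9 (34.1% of all genes), and without replicate 2 it called 7 of 9 (19.9%).

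**Figure D3:**
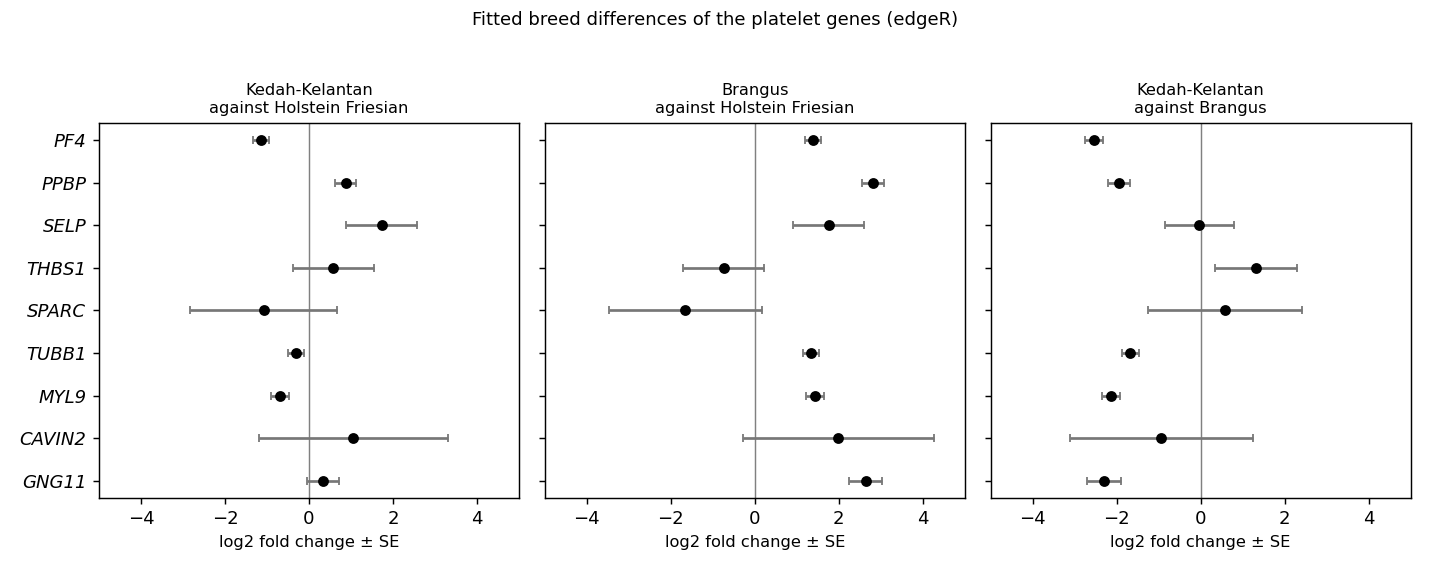
Fitted log2 fold change (x axis) of each of the 9 genes (y axis) with its standard error, for Kedah-Kelantan over Holstein Friesian, Brangus over Holstein Friesian and Kedah-Kelantan over Brangus; values right of 0 are higher in the breed named first. PF4, PPBP, TUBB1, MYL9 and GNG11 lie between 1.35 and 2.82 in the middle panel and between -2.53 and -1.67 in the right one, and SPARC and CAVIN2 have the widest errors.

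Of all 13455 genes tested, 14.0% had both Brangus libraries above the other 4, and 2.36% (318 genes) also differed over 2-fold from each other breed. Of the 9 genes, 5 met both conditions. Some erythroid markers also had their highest levels in Brangus. HBB, for the beta chain of adult haemoglobin, was at 144 and 181 CPM in Kedah-Kelantan, 438 and 635 CPM in Brangus, and 95 and 229 CPM in Holstein Friesian, and 8 of 17 tested erythroid markers had both Brangus libraries above the other 4. EPB41, for a membrane skeleton protein, overlapped at 414 and 338 CPM in Kedah-Kelantan, 311 and 317 CPM in Brangus, and 258 and 492 CPM in Holstein Friesian, and so did SLC25A37, a mitochondrial iron carrier, at 53.1 and 51.8 CPM in Kedah-Kelantan, 52.5 and 94.5 CPM in Brangus, and 28.3 and 90.1 CPM in Holstein Friesian. The summed level over the erythroid list was 685 and 644 CPM in Kedah-Kelantan, 890 and 1149 CPM in Brangus, and 453 and 899 CPM in Holstein Friesian. HBA1 and CA1, also on the erythroid list, had 0 counts in all libraries. The part of red cell content, or of how the blood was drawn and kept, in the platelet gene levels was not tested.

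Genes outside the 9 were read from 8 lists of platelet genes and of relatives of GNG11 and CAVIN2. The lists cover receptors, other alpha granule proteins, granule biogenesis and secretion, cytoskeleton, signalling, other G protein gamma subunits, other caveola genes, and megakaryocyte transcription factors with a growth receptor. The part of other blood cells in the levels of these genes was not tested. None of the 160 genes tested passed edgeR's test in any comparison. With an unadjusted p under 0.05 there were 6 for Kedah-Kelantan over Holstein Friesian, 18 for Brangus over Holstein Friesian and 25 for Kedah-Kelantan over Brangus, 3.75%, 11.2% and 15.6% of the 160 (all genes, 4.04%, 7.62% and 11.6%). DESeq2 called 2, 10 and 15 of the 160, beside 1.01%, 2.33% and 4.99% of all genes. EdgeR called 58, 81 and 48 of the 160 without Holstein Friesian replicate 1, beside 17.5%, 31.3% and 17.4% of all genes, and 35, 37 and 47 without replicate 2, beside 11.9%, 6.06% and 17.5%. Of 21 tested adhesion and activation receptors, 7 had a higher and 14 a lower fitted level in Kedah-Kelantan over Holstein Friesian, with a median log2 fold change of -0.34. For Brangus over Holstein Friesian, 11 were higher and 10 lower (median 0.01), and for Kedah-Kelantan over Brangus, 6 were higher and 15 lower (median -0.48). Both Brangus libraries were above the other 4 for 6 of the 21, beside 14.0% of all genes. The mean centred log2 level of the 9 genes minus that of the 21 receptors was 0.00 and 0.12 in Kedah-Kelantan cows, -0.14 and 0.49 in Brangus cows and 0.48 and -0.95 in Holstein Friesian cows. The breeds thus overlapped in this difference. The mean of the 9 includes SPARC and CAVIN2, near the limit of detection, whose centred values ran from -3.31 to 2.19 and from -3.06 to 3.06.

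ITGB3, the beta chain of the platelet fibrinogen receptor, had 72.2 and 81.0 CPM in Kedah-Kelantan, 269 and 352 CPM in Brangus, and 76.7 and 117 CPM in Holstein Friesian. It gave a log2 fold change of 1.68 (SE 0.28) for Brangus over Holstein Friesian and -2.02 (SE 0.28) for Kedah-Kelantan over Brangus, with edgeR's Benjamini-Hochberg adjusted p at 0.538 and 0.337. MPIG6B, an inhibitory receptor of megakaryocytes and platelets, had 68.1 and 90.5 CPM in Kedah-Kelantan, 177 and 199 CPM in Brangus, and 53.5 and 75.7 CPM in Holstein Friesian. GP6, the collagen receptor, had 1.80 and 2.05 CPM in Kedah-Kelantan, 6.85 and 9.11 CPM in Brangus, and 1.11 and 4.22 CPM in Holstein Friesian. These 3 receptors, and F2RL3, GP5 and TREML1, had both Brangus libraries highest, as the chemokine and cytoskeleton genes did.

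Other platelet-defining receptors varied. ITGA2B, the alpha chain that pairs with ITGB3, had 30.2 and 29.3 CPM in Kedah-Kelantan, 18.6 and 25 CPM in Brangus, and 6.85 and 53.8 CPM in Holstein Friesian. GP9, part of the von Willebrand factor receptor, had 2.19 and 3.35 CPM in Kedah-Kelantan, 5.52 and 3.14 CPM in Brangus, and 1.51 and 2.78 CPM in Holstein Friesian. GP1BA, of the same receptor, had 1 and 3 counts in Kedah-Kelantan cows, 7 and 14 in Brangus cows and 3 and 2 in Holstein Friesian cows. Both Brangus libraries were highest for GP1BA, at counts too low to be tested, but not for ITGA2B or GP9. These receptor genes, and VWF, were named after their values were seen. GP1BA thus had at most 14 counts in any library, and SPARC and CAVIN2 of the 9 had 0 in at least 1.

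The 19 tested genes of other alpha granule proteins had median log2 fold changes of -0.56 for Kedah-Kelantan over Holstein Friesian, -0.21 for Brangus over Holstein Friesian and -0.28 for Kedah-Kelantan over Brangus. Both Brangus libraries were above the other 4 for 2 of them, CLU and VWF, beside 14.0% of all genes. CLU, for clusterin, had 8.88 and 10.6 CPM in Kedah-Kelantan, 55.5 and 56.4 CPM in Brangus, and 15.0 and 25.5 CPM in Holstein Friesian, a log2 fold change of 1.47 for Brangus over Holstein Friesian and -2.52 for Kedah-Kelantan over Brangus (edgeR's adjusted p = 0.641 and 0.337). VWF, for von Willebrand factor, had 10.7 and 14.0 CPM in Kedah-Kelantan, 44.3 and 41.0 CPM in Brangus, and 10.7 and 26.9 CPM in Holstein Friesian. CCL5, a chemokine of platelets that cytotoxic lymphocytes also make, ran otherwise: it had 188 and 235 CPM in Kedah-Kelantan, 56.3 and 56.8 CPM in Brangus, and 47.9 and 72.3 CPM in Holstein Friesian. A2M, which with CCL5 and CLU had the smallest p of this list for any breed difference, ran otherwise too. It had 36.1 and 34.6 CPM in Kedah-Kelantan, 49.8 and 116 CPM in Brangus, and 116 and 355 CPM in Holstein Friesian. Its log2 fold change for Brangus over Holstein Friesian was -1.51 (edgeR's adjusted p = 0.659).

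Among 35 tested cytoskeleton genes, 11 had both Brangus libraries above the other 4 (14.0% of all genes did), and the median log2 fold changes were -0.22, 0.11 and -0.24 in the order of comparisons above. PDLIM1, an actin-associated protein, had 38.2 and 45.0 CPM in Kedah-Kelantan, 125 and 123 CPM in Brangus, and 26.1 and 38.2 CPM in Holstein Friesian. PARVB, which links integrins to actin, had 21.0 and 19.3 CPM in Kedah-Kelantan, 67.4 and 68.6 CPM in Brangus, and 8.76 and 17.3 CPM in Holstein Friesian. MYLK, the kinase that phosphorylates myosin light chains such as that of MYL9, had 3.44 and 3.83 CPM in Kedah-Kelantan, 15.5 and 11.9 CPM in Brangus, and 6.07 and 5.09 CPM in Holstein Friesian. All 3 were highest in both Brangus libraries, as TUBB1 and MYL9 were. DESeq2 called ITGB3, MPIG6B, CLU, PDLIM1, PARVB and MYLK in both comparisons with Brangus (adjusted p at most 0.00835), although edgeR called none of them. Among 28 tested signalling genes, 3 had both Brangus libraries above the other 4, namely RGS10, PRKG1 and MMD, and among 26 tested genes of granule biogenesis and secretion, 4 did, counts near the share of all genes. RAP1GAP2, which acts on the small G protein Rap1 and is also on the signalling list, had 120 and 99.2 CPM in Kedah-Kelantan, 42.9 and 42.2 CPM in Brangus, and 57.0 and 210 CPM in Holstein Friesian, lowest in Brangus.

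Some of the 9 genes are also made in vessel walls, so endothelial and smooth muscle markers were read beside them. Their summed level over the 23 listed genes in the count table, of which 10 were tested, was 97.5 and 92.7 CPM in Kedah-Kelantan, 8.73 and 23.4 CPM in Brangus, and 30.1 and 203 CPM in Holstein Friesian. Both Brangus libraries were the lowest. FN1, for fibronectin, made up most of the sum outside Brangus, and CLDN5, ROBO4 and POSTN had 0 counts in all libraries. ACTA2, for smooth muscle actin, was the 1 tested marker with both Brangus libraries highest, at 0.515 and 0.162 CPM in Kedah-Kelantan, 1.24 and 15.0 CPM in Brangus, and 0.537 and 0.722 CPM in Holstein Friesian.

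Relatives of GNG11 and CAVIN2 are set beside the 14.0% of all genes that had both Brangus libraries highest. Of 7 other tested G protein gamma subunits, 1 had both Brangus libraries above the other 4: GNG10 had 53.1 and 65.0 CPM in Kedah-Kelantan, 90.4 and 99.0 CPM in Brangus, and 78.7 and 81.2 CPM in Holstein Friesian. Of 5 other tested caveola genes, 1 did: CAV1, the main caveola protein, had 1.09 and 1.23 CPM in Kedah-Kelantan, 2.44 and 2.02 CPM in Brangus, and 0.336 and 0.380 CPM in Holstein Friesian. Its order of breeds was that of PPBP, at a level where few counts stand behind each value. Of 19 tested megakaryocyte transcription factors and growth receptor genes, 2 had both Brangus libraries above the other 4, and 12 had a lower fitted level in Brangus than in Holstein Friesian. MEIS1, a homeobox factor of the megakaryocyte lineage, had 1.67 and 1.66 CPM in Kedah-Kelantan, 4.97 and 8.08 CPM in Brangus, and 0.738 and 1.90 CPM in Holstein Friesian. ZFPM1, the cofactor of GATA1 and the gene of this list with the smallest p for any breed difference, was lowest in both Brangus libraries, with 12.7 and 14.8 CPM in Kedah-Kelantan, 3.55 and 3.01 CPM in Brangus, and 9.50 and 13.4 CPM in Holstein Friesian. SRF, for serum response factor, was also lowest there, with 39.4 and 37.6 CPM in Kedah-Kelantan, 27.2 and 21.1 CPM in Brangus, and 31.8 and 37.8 CPM in Holstein Friesian.

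**Figure D4:**
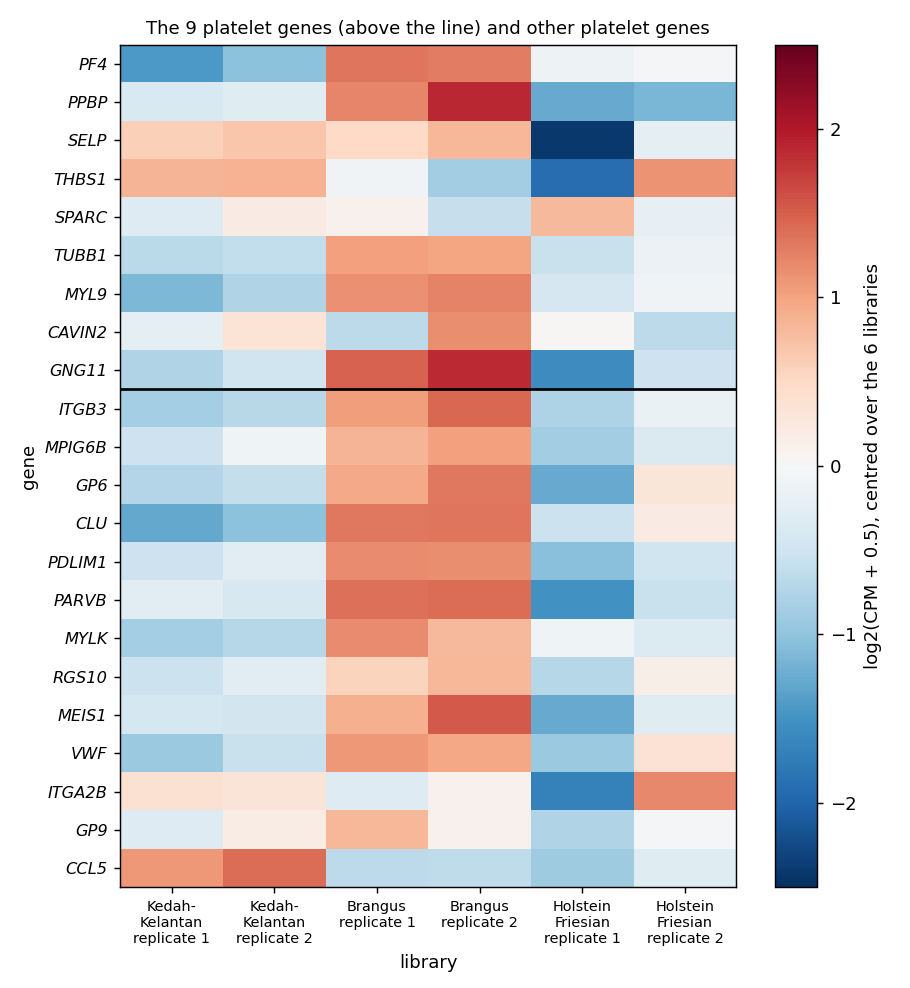
Centred log2 level (log2 of CPM plus 0.5, minus the gene's mean over the 6 libraries; red above, blue below) of the 9 genes, above the line, and of other platelet genes in each library of Kedah-Kelantan, Brangus and Holstein Friesian. PF4, PPBP, TUBB1, MYL9 and GNG11 are red in both Brangus libraries together with ITGB3, MPIG6B, GP6, CLU, PDLIM1, PARVB, MYLK, RGS10, MEIS1 and VWF, while THBS1, ITGA2B and CCL5 are not. The genes below the line are a selection and not whole lists, so their shared colour does not describe the lists. Among listed genes not drawn, ZFPM1, SRF and RAP1GAP2 were lowest in both Brangus libraries, and A2M had its highest mean in Holstein Friesian.

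The genes nearest in pattern were found by the root mean square difference of centred log2 CPM over the 6 libraries, among 11019 genes with a mean log2 CPM of at least 1. The gene nearest to PF4 was CLU, at 0.21, with MYL9 next at 0.22. Nearest to MYL9 was ITGB3 at 0.21, with PF4 among the next at 0.22, and nearest to GNG11 was MEIS1 at 0.22, with PPBP further off at 0.35. The gene nearest to PPBP was PARVB at 0.34, with GNG11 next at 0.35. Nearest to TUBB1 was POMC, a hormone precursor gene, at 0.17, with MYL9 at 0.23.

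SELP and THBS1 had no other of the 9 genes nearby. Nearest to SELP was CHRNB3, a nicotinic receptor subunit gene, at 0.19, and nearest to THBS1 was a copy of the gene for the X-linked catalytic subunit of protein kinase A at 0.20, while SELP and THBS1 stood 1.04 apart. For SPARC and CAVIN2 the nearest genes, LRRC3C and NEB, were no closer than 0.95 and 1.34. The mean profile of all 9 was nearest to LOC100296121, a zinc finger gene, at 0.12, and to ND1, EIF1B, UBE2T and AIFM2 at 0.14 to 0.15, none of them a platelet-defining gene. That mean profile includes SPARC and CAVIN2, near the limit of detection, whose centred values ran from -3.31 to 2.19 and from -3.06 to 3.06. All libraries are shared in these measures, so they describe likeness over 6 libraries and no test was made.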

How the data were processed

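Tools named in the submitters' processing notes are HISAT2 2.2.1, featureCounts 2.0.1, DESeq2 1.38.0, Trimmomatic 0.39 and FastQC 0.11.9, and the genome build is ARS-UCD1.2. What each tool did, and whether reads were counted by strand, is not given in the sources used here. Reads of genes that overlap on opposite strands may thus be mixed. The deposited counts are whole-number reads per gene, not normalised. The FPKM values deposited by the authors are counts scaled by gene length and by the counted reads of the library. Gene positions are the authors' own.

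From the counts, edgeR 4.0.16 in R 4.3.3 was run with TMM scaling, filterByExpr (13455 genes kept) and a robust quasi-likelihood model of breed over all 6 libraries (3 residual degrees of freedom, common biological coefficient of variation 0.43). Benjamini-Hochberg adjustment ran over all genes tested, with calls made under an adjusted p of 0.05. Log2 fold changes are those of the breed named first over the other, so positive values are higher in the first. Each has an SE: its size divided by the square root of F. Where a library had no count, up to 3 counts were allowed for (0.0965 to 0.129 CPM by library). No molecular identifiers mark single molecules, so floors and intervals cover counting error only. The fit was also run on simulated data with known changes, in which each gene had the same spread in every breed. The simulation thus did not cover replicates as unlike as those of Holstein Friesian.

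Alternatives were DESeq2 1.42.0 as a test, its size factors in edgeR, other filters, 2-breed fits, a replicate block, no haemoglobin genes, limma 3.58.1 on log2 of FPKM plus 0.1 or 1, and fits without each library. The members and lists were chosen with earlier results of these data known. Besides the 9 members, up to 3 genes per platelet list with the smallest p for any breed difference, up to 3 of the highest genes per marker list, and the nearest genes by pattern could be named. Lists are described by counts and medians, without a set test.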

Additional observations from a re-analysis of the deposited data

How the results depend on the processing

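Of 393 alternative values of single members over the 3 comparisons, 334 kept direction and side of the threshold, 48 kept direction and passed it, and 11 reversed. The 284 values of the other listed genes with fold changes tried kept direction, and 58 passed the threshold. PF4, PPBP, TUBB1 and MYL9 reversed under none. CAVIN2 reversed in none of 13, 12 and 13 alternatives for Kedah-Kelantan and Brangus each over Holstein Friesian and Kedah-Kelantan over Brangus. Fits that left a member at 0 counts in a breed are not among the 393. Without Brangus replicate 2, CAVIN2 had 0 counts in Brangus, beside 5 and 15 in Kedah-Kelantan. That runs against its fitted direction for Kedah-Kelantan over Brangus (-0.93). THBS1, SPARC and GNG11, Kedah-Kelantan over Holstein Friesian, were -0.27, 0.56 and -0.10 without Holstein Friesian replicate 1, with ranges over fits without 1 library each of -0.27 to 2.89, -2.26 to 0.56 and -0.10 to 0.91, and THBS1, Brangus over Holstein Friesian, was 1.57 without replicate 2 and -1.60 without replicate 1. For Kedah-Kelantan over Brangus, SELP, whose value was near 0, was 0.23 and 0.19 with limma on log2 FPKM plus 0.1 and plus 1, and between -0.21 and 0.16 over fits without 1 library each, positive when either Kedah-Kelantan replicate 1 or Brangus replicate 2 was left out (0.04 and 0.16). There SPARC was -0.60 with Kedah-Kelantan replicate 2 left out and -0.39 with Brangus replicate 2 left out, with 1.24 as its highest value over fits without 1 library each and 1.52 over the other alternatives. The cause of these reversals was not tested.

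In the order of Kedah-Kelantan and Brangus each over Holstein Friesian, Kedah-Kelantan over Brangus, and any difference among breeds, DESeq2 called 131, 313, 672 and 625 genes, with 1, 5, 5 and 5 members, against 1, 1, 0 and 0 genes and 0 members in edgeR. The 2-breed fits called 0, 0 and 2538 genes, with 6 members in the last. Over fits without 1 library each, genes called ranged from 0 to 2464, 0 to 4395, 0 to 2458 and 0 to 4783, and members from 0 to 4, 0 to 7, 0 to 6 and 0 to 7, all calls of members coming without a Holstein Friesian library. The filter at a mean count of 50 called 0 genes in both comparisons with Holstein Friesian, DESeq2's size factors 0 for Brangus over Holstein Friesian, and no filter 1 for any breed difference. With limma on log2 FPKM plus 0.1, 3 genes were called for Brangus over Holstein Friesian and 1 for any difference. With FPKM plus 1, 2 were called for Kedah-Kelantan over Holstein Friesian, 1 for Kedah-Kelantan over Brangus and 2 for any difference. None of these was a member.

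The members' median log2 fold change for Kedah-Kelantan over Holstein Friesian was 0.58 and 0.09 with limma on FPKM plus 0.1 and plus 1, where the median of all genes was 0.18 and 0.12, and -0.10 to 0.45 without 1 library each. For Kedah-Kelantan over Brangus it was -1.95 with the stricter filter, -1.40 and -1.34 with limma (all genes 0.28 and 0.19), and -1.93 to -1.58 without 1 library each. SPARC and CAVIN2 did not pass the stricter filter, so the median there is over the other members only. For Brangus over Holstein Friesian it stayed between 1.24 and 1.57. A member left with 0 counts in an arm entered these medians at the bound of 3 counts and was not tested.

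The labels give all breeds replicate numbers 1 and 2 and do not say whether same-numbered libraries belong together. Deviations of same-numbered libraries correlated at 0.00, 0.14 and 0.04 between breeds. With 1 replicate difference per breed, these values cannot decide whether the numbers pair the samples. With a replicate block no member and 0 genes were called in any comparison, PF4 was -2.54 for Kedah-Kelantan over Brangus (adjusted p = 0.569 in edgeR), and SELP was 0.01 there. Having 2 libraries per breed, unlike Holstein Friesian replicates and counts under 30 for SPARC and CAVIN2 limit what these data can show.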
